A study of Homo sapiens with 8 samples.

Results

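The 10 genes described here were chosen by name: the 5 cargo receptors *SQSTM1*, *NBR1*, *CALCOCO2*, *OPTN* and *TAX1BP1*, the 2 ATG8 genes *GABARAPL1* and *MAP1LC3B*, the 2 early autophagy genes *ULK1* and *WIPI1*, and *TFEB*, which encodes a transcription factor. These 10 genes were found once each among 57815 gene identifiers, and all 10 passed the expression minimum described below in both lines. RNA-seq values were available for ABC1 and HCC4006, established human lung adenocarcinoma lines with no mutations in *KEAP1* or *NRF2*. The 16 h treatment was either DEM at 100 μM or its vehicle, DMSO, and each of the 4 groups held 2 libraries, 8 in all. DEM (diethyl maleate) is an electrophile that inhibits KEAP1, the adaptor that sends NRF2 for degradation, so the comparison of DEM with vehicle asks what follows when NRF2 is released in cells with an intact KEAP1-NRF2 system. The series title spells the agent as dimethylmaleate, and the name used here is that of the study's methods. Each line stands for 1 tumour, and DEM reacts with thiols other than those of KEAP1, so the design does not separate NRF2 from other responses to the agent.

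Autophagy encloses cytoplasm in a double membrane and delivers it to the lysosome. The ULK1 kinase complex starts the process, the lipid PI3P made at the forming membrane recruits WIPI proteins, and proteins of the ATG8 family are coupled to that membrane. Cargo receptors bind ubiquitin on their cargo and ATG8 proteins on the membrane, and so link one to the other. SQSTM1, also known as p62, can in addition bind KEAP1, and its gene is a known target of NRF2. TFEB and its relative TFE3 switch on genes of lysosomes and autophagy when they enter the nucleus.

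DEM raised *SQSTM1* and *GABARAPL1* in both lines. In ABC1 these were the genes that passed the test among the 10, and in HCC4006 they were joined by *MAP1LC3B*, *WIPI1*, *TFEB*, *CALCOCO2*, *TAX1BP1* and *OPTN*. None of the 10 fell. *SQSTM1* rose 3.28-fold in mean FPKM in ABC1 and 2.39-fold in HCC4006, and *GABARAPL1* rose 2.11-fold and 3.91-fold, respectively. *NBR1* did not pass the test in either line. In RNA from whole cultures, more cells with a transcript and more of it per cell cannot be told apart.

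Levels are in FPKM, a fragment count set relative to transcript length and library size, which allows genes to be compared per length. Log2 differences are of log2(FPKM + 1) and are given with the standard error (SE), so they understate the change of a gene with low FPKM. A gene was called at a Benjamini-Hochberg adjusted p under 0.05 by limma, over all genes whose mean FPKM reached 1 in that line. The libraries of a group are biological duplicates according to the methods. An exact two-sided permutation test of 2 libraries against 2 cannot give a p below 0.333. FPKM sums differed by at most 1.18 times between libraries, and 12515 to 13573 genes reached 1 FPKM in a library. *NQO1*, a classical NRF2 target, rose from 56.0 and 82.8 to 193 and 221 FPKM in ABC1 and from 273 and 269 to 480 and 525 FPKM in HCC4006. The 5 epithelial markers *EPCAM*, *KRT8*, *KRT18*, *KRT19* and *CDH1* summed to between 1983 and 5799 FPKM in the 8 libraries. Of these, *KRT8* (-0.46 ± 0.079 SE) and *KRT18* (-0.40 ± 0.059 SE) fell with DEM in HCC4006. In ABC1 the differences of *KRT8* (-0.54 ± 0.20 SE), *KRT18* (-0.65 ± 0.16 SE) and *KRT19* (-0.37 ± 0.14 SE) were larger than in HCC4006 but did not pass the test, and none of the 5 markers had a response that was called different between the lines. Of 6 markers of other cell types, *PTPRC*, *CD3E*, *DCN* and *VWF* lay near 0, *COL1A1* between 3.58 and 7.64 FPKM, and *CD68*, which encodes a lysosomal membrane glycoprotein, between 1.55 and 2.54 FPKM in ABC1 and between 89.3 and 102 FPKM in HCC4006. The part of keratin levels in the results was not tested.

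The sequences shown here are those 5′ of *SQSTM1*, *GABARAPL1* and *MAP1LC3B*, whose changes were the largest in HCC4006, and those of 3 others of the 10 genes that hold an E-box. They were read from GRCh37 in the 2000 bases before the start of each gene's MANE Select transcript and are printed 5′ to 3′ on the gene's strand with 20 bases on each side. Capitals mark the match. The antioxidant response element, to which NRF2 binds with a small MAF protein, was searched on both strands as the core TGACNNNGC and as that core followed by A. The E-box CACGTG, which forms the centre of the elements that TFEB and TFE3 bind, and the cAMP response element TGACGTCA were searched likewise. *SQSTM1* held 2 antioxidant response elements of the longer form, both on the opposite strand, whose outermost bases lay 1321 and 353 bases before the start at chr5:179247905, and 1 E-box 1345 bases before it. The E-box and the more distant antioxidant response element overlap by their printed flanks. Of *MAP1LC3B*, which held 3 matches to the core, only the nearest to the start is printed. Its match to the longer form, 1535 bases before the start on the opposite strand, is not printed. For *TFEB*, *ULK1* and *WIPI1* only the E-box is printed.
SQSTM1, antioxidant response element, chr5:179246564-179246613, plus strand: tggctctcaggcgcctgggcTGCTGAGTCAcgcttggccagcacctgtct
SQSTM1, antioxidant response element, chr5:179247532-179247581, plus strand: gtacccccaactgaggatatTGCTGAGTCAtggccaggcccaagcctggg
SQSTM1, E-box, chr5:179246540-179246585, plus strand: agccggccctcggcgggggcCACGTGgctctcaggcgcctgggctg
GABARAPL1, E-box, chr12:10364386-10364431, plus strand: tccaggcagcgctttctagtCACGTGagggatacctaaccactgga
GABARAPL1, cAMP response element, chr12:10365426-10365473, plus strand: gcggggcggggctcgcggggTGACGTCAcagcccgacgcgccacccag
MAP1LC3B, antioxidant response element core, chr16:87425876-87425924, plus strand: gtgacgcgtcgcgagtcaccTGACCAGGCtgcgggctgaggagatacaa
TFEB, E-box, chr6:41704550-41704595, minus strand: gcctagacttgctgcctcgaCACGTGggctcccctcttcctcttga
ULK1, E-box, chr12:132377911-132377956, plus strand: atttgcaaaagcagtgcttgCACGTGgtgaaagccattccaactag
WIPI1, E-box, chr17:66453968-66454013, minus strand: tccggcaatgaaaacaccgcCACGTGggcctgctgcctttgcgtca

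Across the 10 genes, 4 held the longer antioxidant response element (*SQSTM1*, *TFEB*, *MAP1LC3B* and *CALCOCO2*), against 19.3% of 18922 windows of the same length. *SQSTM1* was the only one of the 10 with at least 2 such matches, which 2.03% of windows had. The shorter core was held by 7 of the 10 genes and by 52.5% of windows, the E-box by 5 and by 27.5%, and the cAMP response element by *GABARAPL1* alone and by 3.9%. *GABARAPL1* held neither form of the antioxidant response element in this window. In the 250 bases before the starts listed by RefSeq (GRCh38.p14), where all 10 genes had an entry, the cAMP response element of *GABARAPL1* lay 30 bases and the antioxidant response element core of *MAP1LC3B* 46 bases before the start. *CALCOCO2* also held this core there, 129 bases before its start and on the opposite strand, so 2 of the 10 genes had it. The 10 genes had 17 promoter entries, and the core was in 1 entry each of *MAP1LC3B* and *CALCOCO2*. That core was present in 10.9% and the cAMP response element in 1.65% of 35116 promoter entries. These shares are per entry and so are to be read against the 17 entries, not the 10 genes. A match is a description of the sequence and not a site shown to be bound.

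*SQSTM1* (ENSG00000161011, chr5:179233398-179265078, plus strand, GRCh37) had the highest level of the 10 genes in every library. In ABC1 it measured 183 and 199 FPKM with vehicle and 644 and 609 FPKM with DEM. HCC4006 libraries held 965 and 924 FPKM with vehicle and 2242 and 2273 FPKM with DEM. The DEM libraries lay far above the vehicle libraries of the same line, and even untreated HCC4006 cells lay above DEM-treated ABC1 cells. The log2 difference was 1.71 ± 0.13 (SE, limma, Benjamini-Hochberg adjusted p = 0.0158) in ABC1 and 1.26 ± 0.058 (adjusted p = 0.000524) in HCC4006. Ranked by mean FPKM among all genes, *SQSTM1* moved from place 478 to 115 in ABC1, and in HCC4006 from place 69 to 22. The gain in mean FPKM was 435 in ABC1 and 1313 in HCC4006. In ABC1 the call was lost without vehicle replicate 0 (adjusted p = 0.207) or without vehicle replicate 1 (adjusted p = 0.142), and the adjusted p ranged from 0.000223 to 0.207 over all alternatives, while the log2 difference stayed between 1.65 and 1.77. With no expression minimum the call was lost in ABC1 and in HCC4006, where it was the only loss (limma, adjusted p = 0.0503). The pseudogene *SQSTM1P1* was listed at 0 in every library.

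*NBR1* (ENSG00000188554, chr17:41322498-41363708, plus strand) encodes a receptor built like SQSTM1, with a ubiquitin-binding domain and an ATG8-binding motif. Its level was 16.0 and 16.7 FPKM with vehicle and 17.7 and 19.7 FPKM with DEM in ABC1. In HCC4006 it was 25.7 and 25.5 FPKM with vehicle and 27.0 and 25.6 FPKM with DEM. The DEM values lay above the vehicle values in ABC1 and overlapped with them in HCC4006. The log2 difference was 0.18 (95% confidence interval -0.14 to 0.50) in ABC1 and 0.04 (-0.16 to 0.24) in HCC4006, and neither passed the test (limma, adjusted p = 0.458 and 0.767, respectively). The ratio of *SQSTM1* to *NBR1* rose from 11.4 and 12.0 to 36.4 and 30.9 in ABC1 and from 37.5 and 36.3 to 83.0 and 88.8 in HCC4006.

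*CALCOCO2*, also known as NDP52, encodes a receptor for bacteria and damaged mitochondria (ENSG00000136436, chr17:46908380-46943884, plus strand). It measured 19.2 and 24.4 FPKM with vehicle and 29.4 and 26.8 FPKM with DEM in ABC1. The HCC4006 values were 24.4 and 27.8 FPKM with vehicle and 38.5 and 43.9 FPKM with DEM. Values did not overlap in either line, but the gap was small in ABC1. The gene rose in HCC4006 (0.64 ± 0.11 SE, limma, adjusted p = 0.0142), and in ABC1 the difference of 0.36 ± 0.16 (SE) did not pass the test (adjusted p = 0.254). In HCC4006 the call held in 9 of 12 alternatives. It was lost without vehicle replicate 0, without DEM replicate 1 and with no expression minimum. The adjusted p (limma) ranged from 0.00646 to 0.141 over all alternatives.

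*TAX1BP1* (ENSG00000106052, chr7:27778950-27884183, plus strand), a relative of *CALCOCO2* that recruits protein aggregates and ferritin complexes to autophagy, was the receptor with the highest level after *SQSTM1*. It measured 116 and 134 FPKM with vehicle and 171 and 194 FPKM with DEM in ABC1. Levels in HCC4006 were 162 and 158 FPKM with vehicle and 198 and 203 FPKM with DEM. Both DEM libraries lay above both vehicle libraries in each line. The difference was larger in ABC1 (0.54 ± 0.14 SE, limma, adjusted p = 0.117) but passed the test only in HCC4006, where the spread was smaller (0.32 ± 0.061 SE, adjusted p = 0.0208). The difference between the lines' responses itself was -0.22 (95% confidence interval -0.57 to 0.13) and was not called (adjusted p = 0.573). In HCC4006 the call was lost when any 1 of the 4 libraries was left out, and the adjusted p ranged from 0.0139 to 0.124 over all alternatives.

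*OPTN* (ENSG00000123240, chr10:13141449-13180308, plus strand) encodes optineurin, which acts in the removal of damaged mitochondria and bacteria after phosphorylation by TBK1. In ABC1 it measured 59.0 and 66.8 FPKM with vehicle and 60.2 and 65.2 FPKM with DEM, so the DEM values lay between the vehicle values. HCC4006 libraries held 103 and 92.3 FPKM with vehicle and 124 and 119 FPKM with DEM, with no overlap. The log2 difference was -0.0024 (95% confidence interval -0.32 to 0.32) in ABC1 and 0.31 ± 0.079 (SE, limma, adjusted p = 0.0455) in HCC4006. The call in HCC4006 was lost when any 1 of the 4 libraries was left out, with adjusted p between 0.0207 and 0.223 over all alternatives. Since *OPTN*, *NBR1*, *CALCOCO2* and *TAX1BP1* moved less than *SQSTM1*, *SQSTM1* made up 45.9% ± 0.98 of the summed FPKM of the 5 receptors with vehicle and 68.2% ± 2.3 with DEM in ABC1, and 75.3% ± 0.045 and 85.3% ± 0.021, respectively, in HCC4006 (SD, n = 2).

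**Figure D1:**
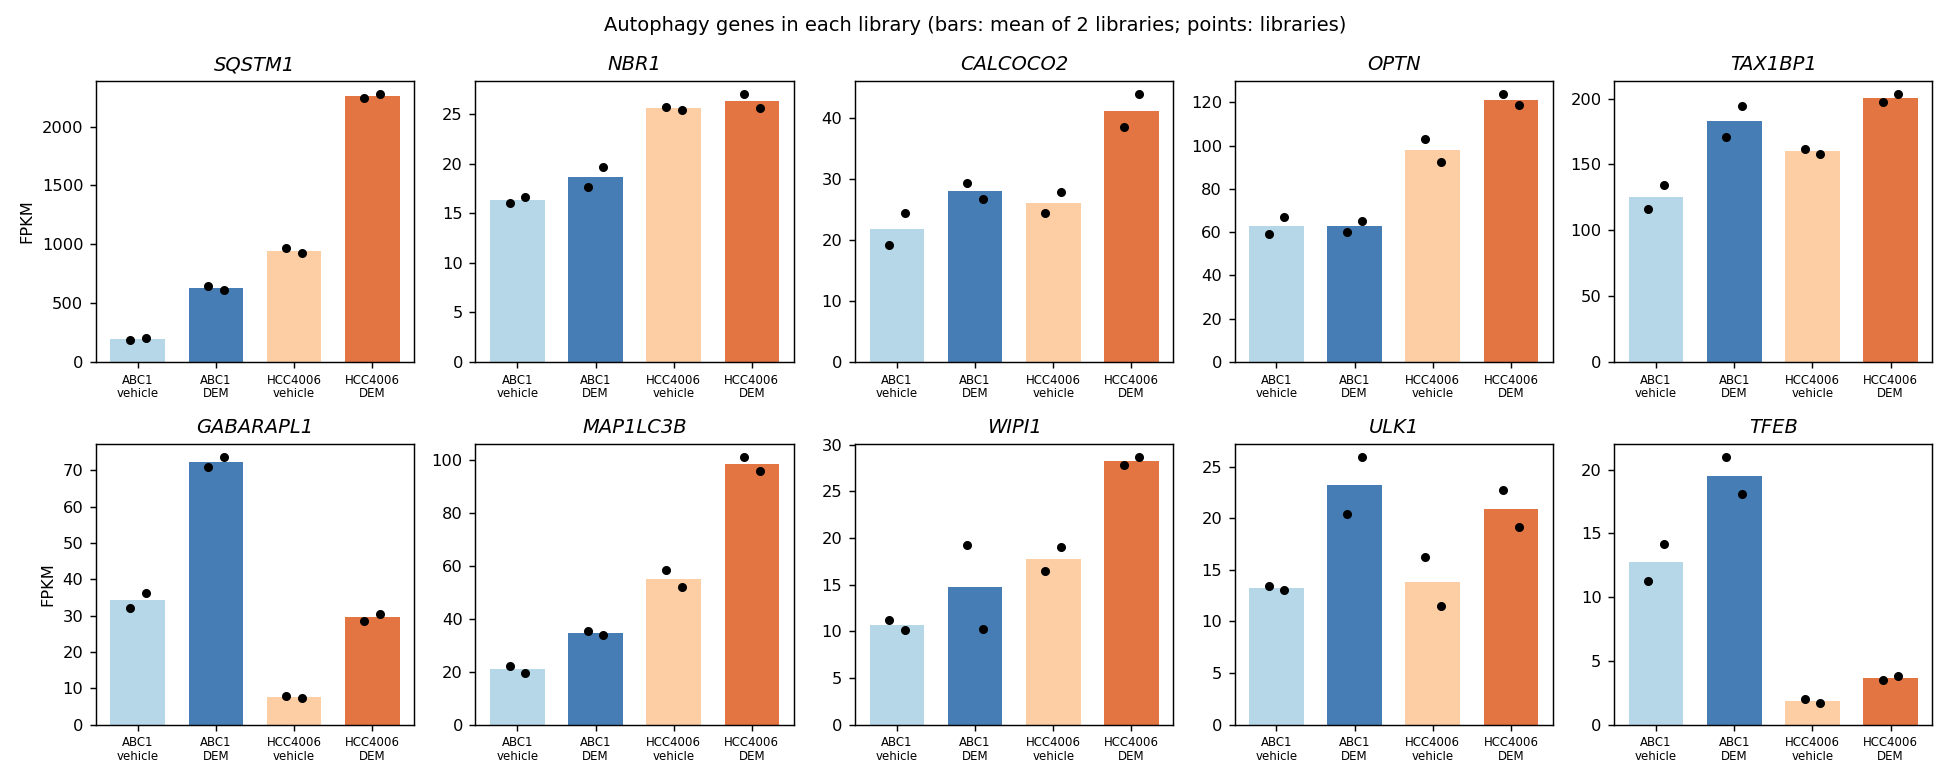
FPKM of the 10 genes in each library, with 1 panel per gene, bars at the mean of 2 libraries and points at the single libraries, on linear axes from 0 that differ between panels. *SQSTM1* and *GABARAPL1* show DEM bars well above the vehicle bars in both lines, *NBR1* bars of similar height within each line, and *WIPI1* in ABC1 DEM libraries at 19.3 and 10.3 FPKM.

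*GABARAPL1* (ENSG00000139112, chr12:10365057-10375727, plus strand) encodes an ATG8 protein of the *GABARAP* subfamily, which acts in later steps of autophagosome formation. In ABC1 it measured 32.1 and 36.3 FPKM with vehicle and 70.9 and 73.6 FPKM with DEM. The HCC4006 values were 7.85 and 7.25 FPKM with vehicle and 28.5 and 30.6 FPKM with DEM. The groups lay far apart in both lines, and DEM-treated HCC4006 cells stayed below untreated ABC1 cells. The log2 difference was 1.06 ± 0.13 (SE, limma, adjusted p = 0.0365) in ABC1 and 1.84 ± 0.097 (SE, adjusted p = 0.000677) in HCC4006, where it ranked 29 of 13542 genes by log2 difference. In ABC1 the call was lost when any 1 of the 4 libraries was left out, with adjusted p between 0.00159 and 0.308 over all alternatives and a log2 difference between 0.97 and 1.15. The near-identical copy *GABARAPL3* was listed at no more than 0.0763 FPKM in any library.

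*MAP1LC3B* (ENSG00000140941, chr16:87417559-87438385, plus strand) encodes LC3B, the ATG8 protein most often used as a marker of autophagosomes. It measured 22.3 and 19.6 FPKM with vehicle and 35.5 and 34.1 FPKM with DEM in ABC1. Levels in HCC4006 were 58.4 and 51.9 FPKM with vehicle and 101 and 96.0 FPKM with DEM. DEM values lay above vehicle values in each line. The rise in HCC4006 was called (0.83 ± 0.084 SE, limma, adjusted p = 0.00391), and the difference of 0.71 ± 0.13 (SE) in ABC1 was not (adjusted p = 0.0671). The HCC4006 call was lost only with no expression minimum (limma, adjusted p = 0.0760). The copy *MAP1LC3B2* was listed at 0 in every library.

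Of the other ATG8 genes, *GABARAP* and *GABARAPL2* in both lines and *MAP1LC3A* in HCC4006 reached the expression minimum, and none of them passed the test. *GABARAP*, the family member with the highest level, measured 269 and 271 FPKM with vehicle and 286 and 269 FPKM with DEM in ABC1. In HCC4006 *GABARAP* measured 288 and 275 FPKM with vehicle and 243 and 246 FPKM with DEM, a difference of -0.20 ± 0.061 (SE, limma, adjusted p = 0.0682). *GABARAPL2* lay between 20.6 and 31.7 FPKM in all 8 libraries, and *MAP1LC3A* at no more than 0.0425 FPKM in ABC1 and between 0.469 and 1.64 FPKM in HCC4006. In the summed FPKM of the family, *GABARAP* took 76.9% ± 0.62 with vehicle and 67.0% ± 0.68 with DEM in ABC1, and 75.9% ± 1.4 and 61.1% ± 0.78 in HCC4006 (SD, n = 2). The share of *GABARAPL1* was 9.73% ± 0.71 with vehicle and 17.5% ± 1.1 with DEM in ABC1, and 2.04% ± 0.015 and 7.38% ± 0.22 in HCC4006. That of *MAP1LC3B* was 5.96% ± 0.64 and 8.40% ± 0.037 in ABC1, and 14.9% ± 0.51 and 24.7% ± 1.4 in HCC4006. The shares are of messenger RNA and were compared as descriptions, with no test.

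**Figure D2:**
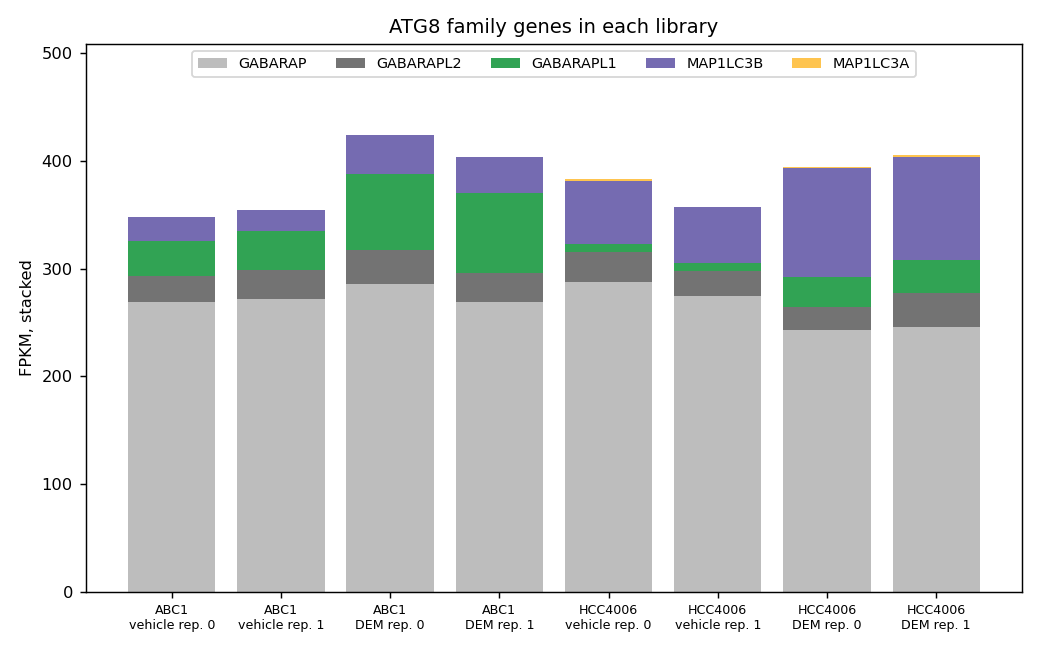
FPKM of the ATG8 family genes, stacked, in each of the 8 libraries, with 1 bar per library. *GABARAP* fills most of every bar, the *GABARAPL1* segment is widest in ABC1 with DEM, and the *MAP1LC3B* segment is widest in HCC4006 with DEM.

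*ULK1* (ENSG00000177169, chr12:132379167-132407695, plus strand) encodes the kinase that starts autophagy. It measured 13.4 and 13.0 FPKM with vehicle and 20.4 and 25.9 FPKM with DEM in ABC1. HCC4006 libraries held 16.3 and 11.5 FPKM with vehicle and 22.7 and 19.1 FPKM with DEM. Although no values overlapped, neither the difference of 0.76 ± 0.15 (SE) in ABC1 nor that of 0.58 ± 0.17 (SE) in HCC4006 passed the test (limma, adjusted p = 0.0789 and 0.0690, respectively). Over all alternatives the lowest and highest adjusted p in ABC1 were 0.0121 and 0.339. For HCC4006 they were 0.0174 and 0.347, and the gene was called there in 4 of 12 alternatives. Without vehicle replicate 0 the HCC4006 difference was 0.81 and was called (adjusted p = 0.0399), and without vehicle replicate 1 it was 0.34 (adjusted p = 0.229).

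*WIPI1* (ENSG00000070540, chr17:66417089-66453654, minus strand), a PI3P-binding protein of the forming membrane, measured 11.2 and 10.1 FPKM with vehicle and 19.3 and 10.3 FPKM with DEM in ABC1. DEM replicate 1 lay between the vehicle libraries, and without DEM replicate 0 the log2 difference was -0.046 instead of 0.38 ± 0.28 (SE). The HCC4006 values were 16.4 and 19.1 FPKM with vehicle and 27.8 and 28.7 FPKM with DEM. There the groups did not overlap and the rise was called (0.64 ± 0.10 SE, limma, adjusted p = 0.0121). The call was lost without vehicle replicate 0, without DEM replicate 0 or without DEM replicate 1 (adjusted p = 0.0588, 0.0578 and 0.0594), and the adjusted p ranged from 0.00646 to 0.128 over all alternatives.

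*TFEB* (ENSG00000112561, chr6:41651716-41703997, minus strand) measured 11.3 and 14.2 FPKM with vehicle and 21.0 and 18.1 FPKM with DEM in ABC1. Levels in HCC4006 were 2.01 and 1.71 FPKM with vehicle and 3.48 and 3.78 FPKM with DEM. DEM values lay above vehicle values in both lines, but all HCC4006 values lay below all ABC1 values. The log2 difference was 0.58 ± 0.16 (SE) in ABC1, which did not pass the test (limma, adjusted p = 0.127), and 0.70 ± 0.15 (SE) in HCC4006, which did (adjusted p = 0.0295). At this low level the pseudocount matters: the ratio of mean FPKM in HCC4006 was 1.95, and the log2 difference with a pseudocount of 0.1 was 0.93. The call in HCC4006 was lost when any 1 of the 4 libraries was left out, with adjusted p between 0.0245 and 0.145 over all alternatives. *TFEB* also had the lowest base mean of the 10 genes in HCC4006, 68.6 scaled counts per library in the authors' deposited table, against 47439 for *SQSTM1*.

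Read against all genes tested, 2 of the 10 genes were called higher in ABC1, where 0.768% of 12635 genes were, and none lower, where 0.435% were. In HCC4006, 8 of the 10 were called higher, where 8.45% of 13542 genes were, and none lower, where 10.7% were. Both DEM libraries lay above both vehicle libraries for 8 of the 10 genes in ABC1, against 25.5% of genes, and for 9 of the 10 in HCC4006, against 29.3% of genes. The exceptions were *WIPI1* and *OPTN* in ABC1 and *NBR1* in HCC4006, and 7 genes were above in both. The median log2 difference of the 10 genes was 0.56 in ABC1 and 0.64 in HCC4006, against -0.017 and -0.025 over all genes tested. The 10 genes were named for their function, and their response was known from earlier results of these data, so these counts are descriptions. In a model of all 8 libraries, *MAP1LC3B*, *TAX1BP1*, *ULK1* and *TFEB* were also called in ABC1 (limma, adjusted p = 0.00845, 0.0201, 0.0361 and 0.0421), while *OPTN*, *TAX1BP1* and *WIPI1* were not called in HCC4006.

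**Figure D3:**
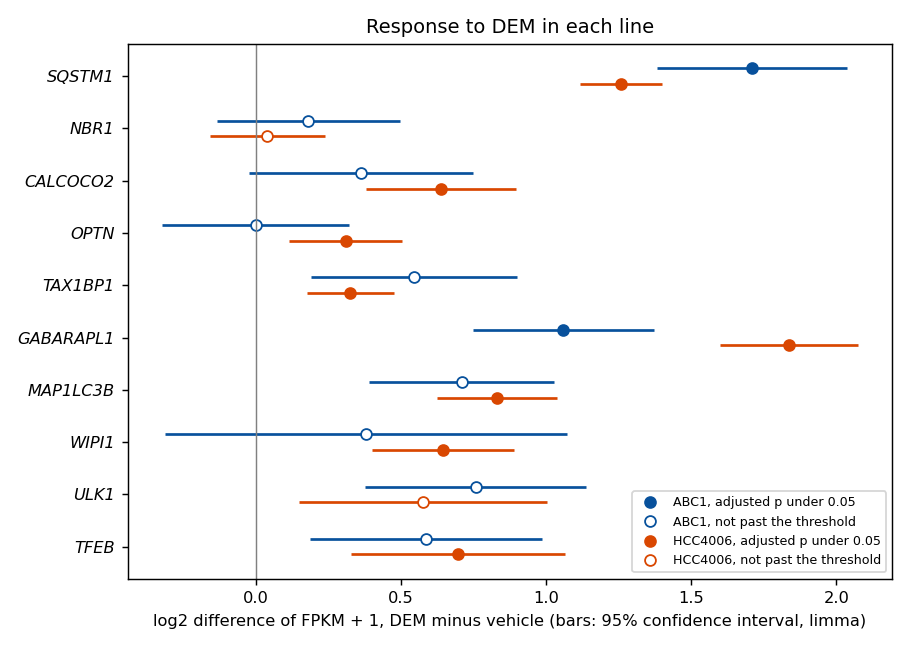
Log2 difference of FPKM + 1 between DEM and vehicle for the 10 genes in ABC1 and HCC4006, with 95% confidence intervals from limma, filled where the adjusted p was under 0.05. The intervals of *SQSTM1*, *GABARAPL1*, *MAP1LC3B*, *ULK1*, *TAX1BP1* and *TFEB* lie above 0 in both lines, those of *SQSTM1* and *GABARAPL1* lie farthest to the right, and that of *WIPI1* in ABC1 is the widest.

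Whether the lines responded differently was tested directly. None of the 10 responses differed between the lines at an adjusted p under 0.05 in limma's model of all 8 libraries, where 0.307% of 13682 genes had a larger and 0.329% a smaller response in HCC4006. *GABARAPL1* had the largest difference, with a response higher by 0.78 ± 0.14 (SE) in HCC4006 and an adjusted p of 0.0720. *SQSTM1* had a response lower by 0.45 (95% confidence interval of the difference -0.76 to -0.14), with an adjusted p of 0.180. These were the 2 genes with an unadjusted p under 0.05. The larger count of calls in HCC4006 stands beside a smaller median SE there (0.12 against 0.17 over all genes).

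The lines differed in the level of 8 of the 10 genes with vehicle. Higher in HCC4006 were 6 genes, against 36.8% of 13682 genes, and lower were 2, against 30.2%. The contrasts pointed opposite ways within the ATG8 family. *SQSTM1* was higher in HCC4006 by 2.30 ± 0.093 (SE, limma, adjusted p = 5.9e-07) and *MAP1LC3B* by 1.36 ± 0.10 (SE, adjusted p = 1.7e-05), whereas *GABARAPL1* was lower by a log2 difference of -2.04 ± 0.10 (SE, adjusted p = 1.6e-06) and *TFEB* by -2.26 ± 0.14 (SE, adjusted p = 6.3e-06). In mean FPKM with vehicle, *SQSTM1* was 4.94-fold and *MAP1LC3B* 2.63-fold higher in HCC4006, and *GABARAPL1* 4.53-fold and *TFEB* 6.84-fold higher in ABC1. *WIPI1* (0.69), *OPTN* (0.63), *NBR1* (0.62) and *TAX1BP1* (0.35) were also higher in HCC4006, while *CALCOCO2* (0.26, 95% confidence interval -0.070 to 0.59) and *ULK1* (0.04, -0.39 to 0.47) were not called. The *WIPI1* call held in 6 of 15 alternatives, with adjusted p between 0.00127 and 0.170. It was lost with either other scaling, with no expression minimum and without any 1 of the HCC4006 libraries or of the ABC1 vehicle libraries. The *TAX1BP1* call was lost without vehicle replicate 0 of ABC1 (adjusted p = 0.110) or without vehicle replicate 0 or 1 of HCC4006 (adjusted p = 0.0980 and 0.0712), within a range of 0.00588 to 0.110. *CALCOCO2* was called without vehicle replicate 1 of ABC1 (0.42, adjusted p = 0.0413), within a range of 0.0413 to 0.600.

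The ratio of *MAP1LC3B* to *GABARAPL1* was 0.695 and 0.538 with vehicle and 0.501 and 0.463 with DEM in ABC1. In HCC4006 it was 7.43 and 7.16 with vehicle and 3.55 and 3.14 with DEM. DEM thus left *MAP1LC3B* above *GABARAPL1* in HCC4006 and below it in ABC1. In order of mean FPKM with vehicle, *SQSTM1*, *TAX1BP1* and *OPTN* came first in both lines. *GABARAPL1* (34.2 ± 3.0, SD, n = 2) followed in ABC1, ahead of *CALCOCO2* (21.8 ± 3.7) and *MAP1LC3B* (20.9 ± 1.9), which overlapped. *NBR1*, *ULK1*, *TFEB* and *WIPI1* closed the order in ABC1, with *ULK1* (13.2 ± 0.31) and *TFEB* (12.7 ± 2.1) also overlapping. In HCC4006, *MAP1LC3B* (55.1 ± 4.6) came after *OPTN*, *CALCOCO2* (26.1 ± 2.4) and *NBR1* (25.6 ± 0.19) overlapped, and *GABARAPL1* (7.55 ± 0.43) and *TFEB* (1.86 ± 0.21) were last after *WIPI1* and *ULK1*.

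**Figure D4:**
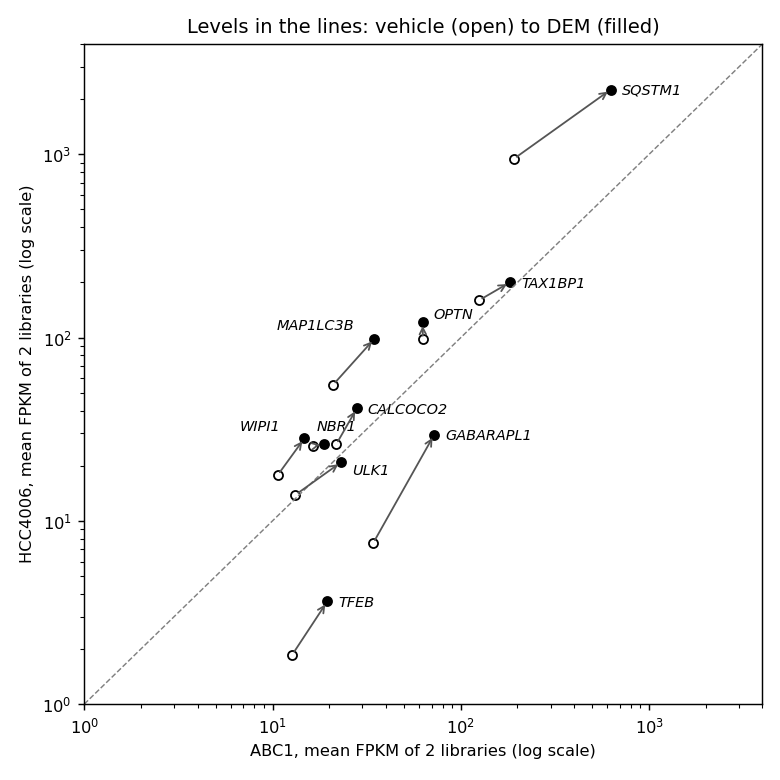
Mean FPKM of the 10 genes in ABC1 (x axis) and HCC4006 (y axis), both on a log scale, with an arrow from vehicle (open) to DEM (filled) and a dashed line where the lines are equal. *SQSTM1* and *MAP1LC3B* lie above the line of equal levels and *GABARAPL1* and *TFEB* below it, before and after DEM.

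The other genes of the pathway were counted from lists by function that hold 92 genes besides the 10. Of these, 90 were found by symbol. In ABC1, 3 of 86 tested were higher, against 0.768% of all genes, none was lower, against 0.435%, and the median log2 difference was 0.16. In HCC4006, 21 of 87 were higher, against 8.45% of all genes, 1 was lower, against 10.7%, and the median was 0.18. Fewer pathway genes, and fewer of all genes, were called in each line, both directions together, when any 1 library of the line was left out. The median of the pathway was nearer to that of all genes than the median of the 10 genes was. The 10 genes and the lists were chosen with earlier results of these data known, so this is a description only.

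The called pathway genes in ABC1 were *TFE3*, *CCPG1* and *GLA*, and all 3 calls were lost without any 1 of the 4 libraries, with no expression minimum or with no mean-variance trend. *TFE3*, the relative of *TFEB*, went from 20.7 and 21.4 to 48.2 and 47.6 FPKM (1.15 ± 0.12 SE, limma, adjusted p = 0.0269), and in HCC4006 from 36.2 and 36.7 to 65.6 and 61.2 FPKM (0.78 ± 0.076 SE, adjusted p = 0.00345). *GLA*, which encodes the lysosomal enzyme alpha-galactosidase A, went from 14.7 and 15.3 to 31.6 and 31.2 FPKM in ABC1 and from 39.1 and 44.2 to 76.0 and 78.6 FPKM in HCC4006. *CCPG1*, a receptor for autophagy of the endoplasmic reticulum, went from 41.2 and 42.5 to 77.2 and 86.4 FPKM in ABC1 and from 49.4 and 50.7 to 55.9 and 59.8 FPKM in HCC4006, where it was not called.

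In HCC4006, where 8.45% of all genes were called higher and 10.7% lower, the MiT/TFE factors and their regulators had 6 of 10 genes called higher, *TFEB* included. In ABC1 1 of the 10 was called higher, against 0.768% of all genes. The list's median was 0.50 in HCC4006 and 0.41 in ABC1. After *TFE3* (0.78) and *TFEB* (0.70), *FLCN* (0.58) and *RRAGC* (0.54) had the largest changes, with *FNIP2* (0.54) level with the latter, and they are parts of the system by which the kinase MTORC1 holds TFEB and TFE3 in the cytoplasm. Of 19 lysosomal enzymes and membrane proteins, 6 rose, led by *GLA* (0.88), the protease *CTSL* (0.67) and the cholesterol transporter *NPC1* (0.64), while the list's median was 0.087. The lists for initiation, the PI3-kinase complex, PI3P effectors with lipid supply and ATG8 conjugation had 1 or 2 called genes each besides the 10: the *ULK1* partner *RB1CC1* (0.50), *RUBCN* (0.72), which encodes the inhibitor Rubicon, the WIPI relative *WDR45B* (0.30), the lipid transfer protein gene *ATG2B* (0.53) and the ATG8 protease gene *ATG4D* (0.59). *PLEKHM1*, an adaptor that joins autophagosomes to lysosomes, changed most of the fusion genes, from 13.2 and 9.49 to 28.1 and 25.2 FPKM (1.17 ± 0.16 SE, limma, adjusted p = 0.00836), and *PINK1*, the kinase that marks damaged mitochondria, rose by 0.31. Of 14 organelle and other receptors, *STBD1* (0.73), *RETREG1* (0.71) and *CALCOCO1* (0.49) rose and *PHB2*, a mitochondrial inner membrane protein, fell (-0.44). None of 86 pathway genes tested had a response called different between the lines. In ABC1 *FLCN* (0.53), *FNIP2* (0.53), *RRAGC* (0.44), *CTSL* (0.35), *NPC1* (0.41), *RUBCN* (0.68), *ATG4D* (0.80) and *PLEKHM1* (0.80) were not called. Nor were *RB1CC1* (0.26), *WDR45B* (0.41), *ATG2B* (0.079), *STBD1* (0.27), *RETREG1* (0.21), *PINK1* (-0.083), *CALCOCO1* (-0.019) and *PHB2* (-0.50).

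**Figure D5:**
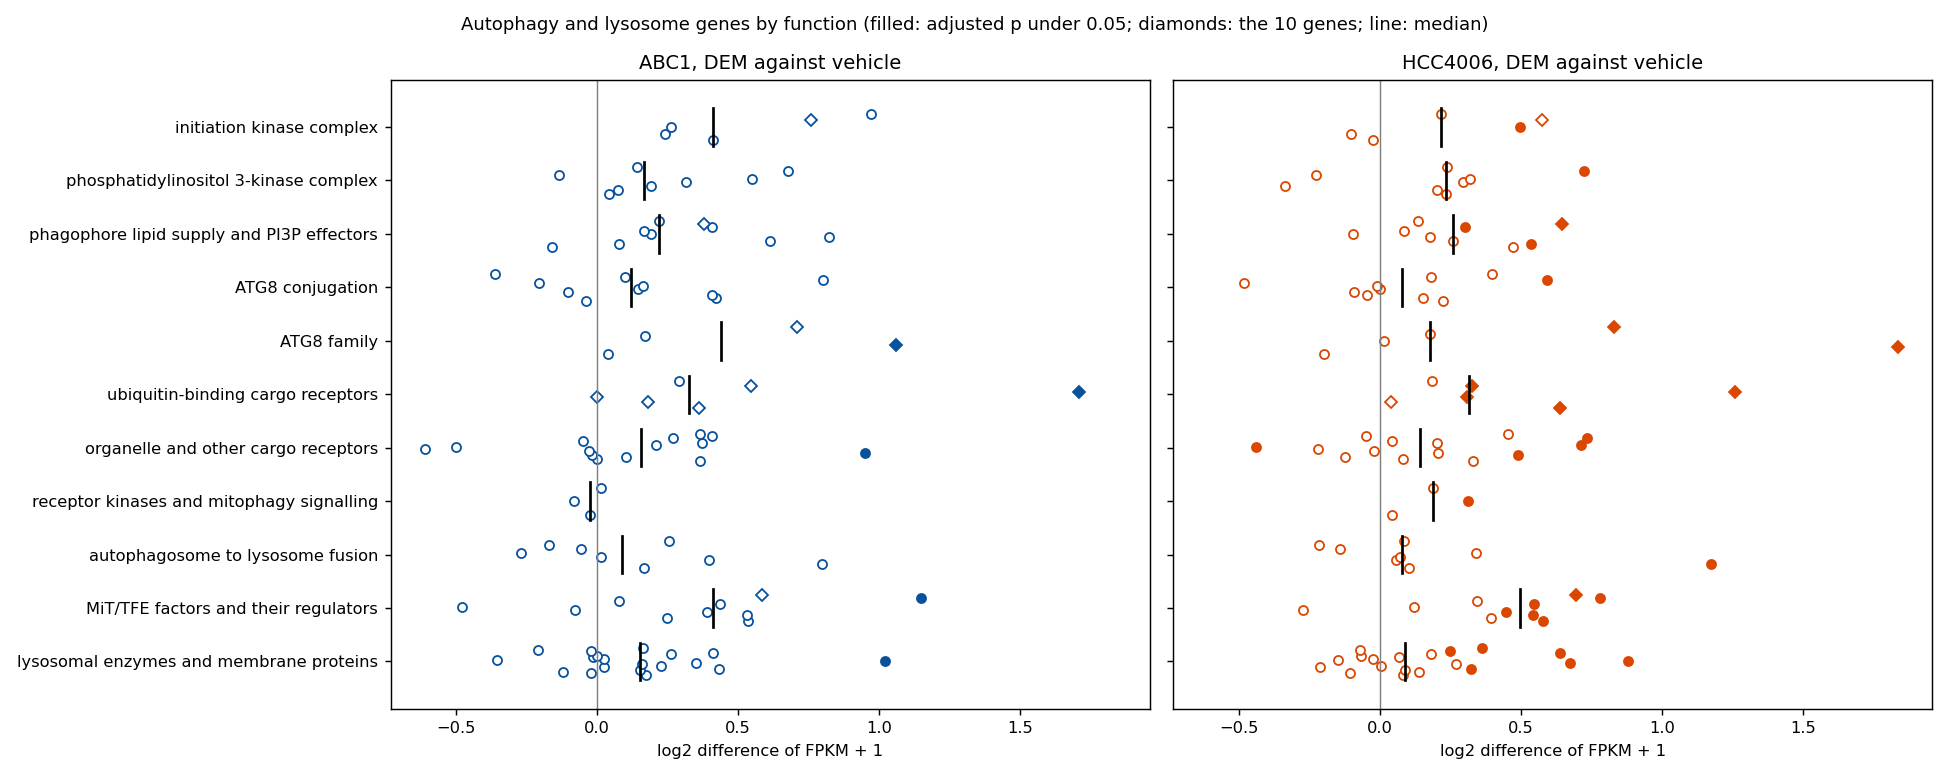
Log2 difference of FPKM + 1 between DEM and vehicle for the genes of each list by function (rows) in ABC1 and HCC4006, with diamonds for the 10 genes, filled symbols for an adjusted p under 0.05 and a black line at each list's median. The filled symbols at the far right are *SQSTM1* and *GABARAPL1* in HCC4006 and *SQSTM1* in ABC1.

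*KEAP1*, whose product binds both NRF2 and SQSTM1, rose with *SQSTM1* in both lines, from 47.0 and 46.9 to 90.9 and 96.6 FPKM in ABC1 and from 44.3 and 43.7 to 72.1 and 82.5 FPKM in HCC4006. Over the 8 libraries, the genes whose log2(FPKM + 1) correlated most with *SQSTM1* were *LRP8* (Pearson's r = 0.999), *SEL1L3* (0.998), *GLA* (0.997), *MIR4435-2HG* (0.995) and *ULBP1* (0.994), out of 13682 genes. For *GABARAPL1* they were ENSG00000267105 (0.995), *TBC1D14* (0.991), *C6orf62* (0.991), *CTSL* (0.987) and *RB1CC1* (0.985). The libraries fall into 4 groups that share a line or a treatment, so these values describe a likeness over 4 group levels. The genes named for *SQSTM1* and for *GABARAPL1* had none in common. With vehicle, *SQSTM1* was higher and *GABARAPL1* lower in HCC4006 than in ABC1, so a gene could not correlate this closely with both. The lack of shared genes is therefore no separate result. *GLA*, named for *SQSTM1*, and *CTSL* and *RB1CC1*, named for *GABARAPL1*, belong to the autophagy and lysosome lists. Besides the genes chosen by name, these lists held 86 of the 13682 genes. Whether list genes were named more often than that share was not tested.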

How the data were processed

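RNA of ABC1 and HCC4006 cells treated with DEM or vehicle was poly(A) selected and sequenced from strand-specific libraries. The authors deposited FPKM values per gene and library. The study's methods give an alignment to hg19 by TopHat and estimation by Cufflinks, while the submitters' processing notes name STAR 2.5.3a, cutadapt 1.15, HTSeq, Cuffnorm and DESeq2, and which of these made a given file is not given in the sources used here. For each line there was also a deposited table of the authors' own comparison. Its base mean, a signal made of depth-scaled counts averaged over the line's libraries by the authors, was used for depth only. Its fold changes and p-values are the authors' own results and were not used. No read counts per library were used, so intervals from counting error are not given.

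Genes whose mean FPKM reached 1 in a line were compared between DEM and vehicle by limma 3.58.1 (R 4.3.3), allowing the variance to follow the mean, on log2(FPKM + 1), and p-values were adjusted over all these genes by Benjamini-Hochberg. Between-line comparisons came from 1 model of all 8 libraries. Gene symbols and positions came from GENCODE 44 lifted to GRCh37, and 55534 of 57815 identifiers had a symbol. NCOA4, IKBKE and a marker, PECAM1, were not matched. The 10 genes and the lists were chosen with earlier results of these data known. Besides the 10 genes, the text names up to 3 called genes per list, line and direction with the largest changes and no overlap between groups, *NQO1* and *GCLM* (1.61 in ABC1 and 2.15 in HCC4006 on the log2 scale), and the 5 genes most correlated with each gene called in both lines. *CLCN7*, *TPP1*, *PSAP*, *FNIP2* and *MCOLN1* were also called in HCC4006. Exon bases were shared only with genes on the opposite strand, such as *MRNIP* (21.0% of *SQSTM1* exon bases, at most 35.6 FPKM) and *ARSG* (24.4% of those of *WIPI1*, at most 4.75 FPKM), and whether counting used strand is not given in the sources used here. The script was tested on simulated data, in which the planted changes were larger than most of those reported here. Alternatives were another pseudocount, expression minimum, scaling, variance model, a replicate block, all libraries in 1 model and leaving out each library.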

Additional observations from a re-analysis of the deposited data

How the results depend on the processing

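With 2 libraries per group the counts of calls depended on the settings more than the sizes of change did. Among the 10 genes, 2 were called in ABC1, against 0.768% of all genes called higher. The count was 0 with no expression minimum, against 0% of all genes called higher, and 1 with no mean-variance trend, against 0.214%. It was 6 with a replicate block, against 9.38%, and 6 in a model of all 8 libraries, against 6.17%. Fewer of the 10, and fewer of all genes, were called when any 1 library was left out. In HCC4006, 8 were called, against 8.45% of all genes called higher. The count was 1 with no expression minimum, against 0.579%, and 5 in the model of all 8 libraries, against 5.87%. It was lower when any 1 library was left out, and so was the count over all genes. The other pathway genes called in ABC1, both directions together, were 3 of 86, where 97 of 12635 genes were called higher and 55 lower. They were 0 with no expression minimum (0 higher and 0 lower of 29470 genes). With no mean-variance trend they were 0 (27 and 6 of 12635 genes). Scaling by the median of ratios gave 5 (184 and 115), and a replicate block gave 27 (1185 and 1163). The model of all 8 libraries gave 13 (779 and 788). Fewer were called when any 1 library was left out, and this held over all genes too. In HCC4006 they were 22, and 0, 13 and 12 with no minimum, no trend and the model of all 8 libraries, and 4 to 7 when 1 library was left out. Over all genes in HCC4006 the main setting called 1144 higher and 1447 lower of 13542. With no minimum these were 177 and 193 of 30580 genes, and with no trend 817 and 998 of 13542. The model of all 8 libraries gave 795 and 990 of 13542. Fewer of all genes were also called when any 1 library was left out. Of responses of the 10 genes that differed between the lines there were 0, and 1 with scaling by the median of ratios. Under that scaling *GABARAPL1* had an adjusted p of 0.0478 (limma). That setting called 0.358% of all genes as larger in HCC4006. Between the lines with vehicle 8 of the 10 genes were called, where 5032 of 13682 genes were called higher and 4127 lower in HCC4006. Of the 8, only *WIPI1* was lost with scaling by the median of ratios (4921 and 4408) or to a common sum (4856 and 4224). The same held with no expression minimum (6243 and 4411 of 33355 genes). The other settings that kept all libraries lost none. Leaving out 1 library lost *WIPI1* or *TAX1BP1*, or both, in some cases. With no minimum, genes near 0 join both the fit and the adjustment. Why the counts changed under any of these settings was not tested.

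Replicate numbers in the labels could pair a DEM library with a vehicle library, but the deviations of same-numbered libraries correlated at 0.258 in ABC1 and 0.0544 in HCC4006 over 2 pairs each, and no label says that a number marks a shared culture or day. With the replicate block 9 of the 10 genes were called in HCC4006, against 10.8% of all genes called higher. Between the lines' responses 0 were called, against 5 of 13682 genes larger and 8 smaller in HCC4006. Between the lines with vehicle 8 were called, against 4991 of 13682 genes higher and 4112 lower in HCC4006.

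Changes of sign were found in differences that had not been called. For *OPTN* in ABC1 the log2 difference was 0.0127 with scaling by the median of ratios and between -0.0903 and 0.0854 when 1 library was left out. Leaving out 1 library also gave ranges of -0.0457 to 0.801 for *WIPI1* in ABC1, -0.0422 to 0.265 for the difference of the *TFEB* responses, -0.158 to 0.689 for that of *WIPI1*, -0.416 to 0.0536 for that of *ULK1*, and -0.191 to 0.279 for *ULK1* between the lines with vehicle. FPKM keeps no counts, so depth limits could not be set per library.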
